A study of Arabidopsis thaliana with 16 samples.

Results

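The mitochondrial-encoded genes described here are all genes of the deposited count tables whose identifier starts with ATMG, 120 of 27628 genes, followed across 16 libraries. Seedlings of Arabidopsis thaliana, 10 days old, were either the wild type Col-0 or the mutant named fust1, and were sampled at 22 °C or after treatment at 37 °C. The study set the heat response of the mutant beside that of the wild type. Each of the 4 combinations of genotype and temperature had 2 RNA-seq libraries, made from RNA selected with oligo-dT, and 2 Ribo-seq libraries of ribosome-protected fragments (footprints), made with RNase I and depleted of ribosomal RNA. The sources used here do not name the fust1 allele or say how long the heat lasted. All groups were whole seedlings: all 5 shoot photosynthesis markers and 4 of 5 root markers had counts in all 8 libraries of each assay, and the fifth root marker had counts in some.

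Plant mitochondria keep a small genome of their own and translate its messages on their own ribosomes. Its genes are known to encode subunits of the respiratory complexes and of the ATP synthase, cytochrome c maturation factors, ribosomal proteins, a maturase and a transport protein, beside many open reading frames of unknown function. In plant mitochondria a poly(A) tail is known to mark RNA for decay and most mature messages lack a stable one, so oligo-dT selection takes a particular fraction of mitochondrial RNA and is not a measure of all of it. Arabidopsis chromosome 2 also carries a large, nearly identical copy of the mitochondrial genome near its centromere.

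RefSeq's mitochondrial annotation (TAIR10.1) lists 33 protein-coding entries under 32 symbols, among them 9 that start with nad (complex I), 3 with cox (complex IV), 5 with atp (ATP synthase), 5 with ccm (cytochrome c maturation), 4 with rps and 3 with rpl (ribosomal proteins), and cob, matR and mttB. It pairs none of them with the ATMG identifiers (0 of 120 matched), so members are given by identifier and no role is attached to any of them. Levels were not compared between genes, because no gene lengths were used here.

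Of the 120 genes, 32 had no count in any of the 16 libraries, 52 had RNA counts and no footprint, 2 had footprints and no RNA count, and 34 had both. Total counts per library ran from 9402134 to 12737375 for RNA and from 6175906 to 13968790 for footprints, and mitochondrial-encoded genes took 24742 RNA counts and 10899 footprints over the 8 libraries of each assay. The design text calls the 2 libraries of a group biological replicates but does not say whether they came from separate cultures, so the tests measure the spread between these libraries. In whole seedlings, a change in the number of mitochondria or of cells and a change in RNA per mitochondrion cannot be told apart. The summed RNA of the 5 root markers in CPM, counts scaled to a common library total (counts per 1000000), was 31.3 to 42.6 in Col-0 at 22 °C and 6.85 to 7.01 at 37 °C, and 15.0 to 32.7 and 4.30 to 12.2 in fust1. By library totals that of the 5 shoot markers was also lower at 37 °C in both genotypes, but on the TMM scale (edgeR's correction for differences in composition between libraries), which the gene tests below use, their median log2 change was 0.64 in Col-0 and 0.54 in fust1 with 0 called lower. On that scale the root markers had medians of -1.52 and -0.33, with 1 called lower in each genotype, and the part of either list in the results was not tested.

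The mitochondrial-encoded genes differed most between temperatures in the oligo-dT RNA, where their summed share of the library at 37 °C was 30.7 times that at 22 °C in Col-0 and 37.7 times in fust1. Together the genes had 198 and 183 counts in the Col-0 libraries at 22 °C and 6980 and 4773 in those at 37 °C. In fust1 they had 119 and 179 counts at 22 °C and 5883 and 6427 counts at 37 °C. All 4 libraries at 37 °C lay far above all 4 at 22 °C. Both fust1 counts at 22 °C were below both Col-0 counts, while as shares of the library total the genotypes overlapped at each temperature.

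As a share of the library total this was 17.3 ± 4.18 CPM at 22 °C and 531 ± 94.3 at 37 °C in Col-0 (mean ± SD, n = 2). In fust1 it was 15.6 ± 4.83 and 589 ± 19.7 CPM (SD, n = 2). On the TMM scale the ratios were 62.2 and 72.3. With 2 libraries against 2 an exact two-sided permutation test cannot go below p = 0.333, so these sums have no test of their own. Without ATMG00690, the member with the most RNA counts, the ratios of totals were 25.9 and 31.4.

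**Figure D1:**
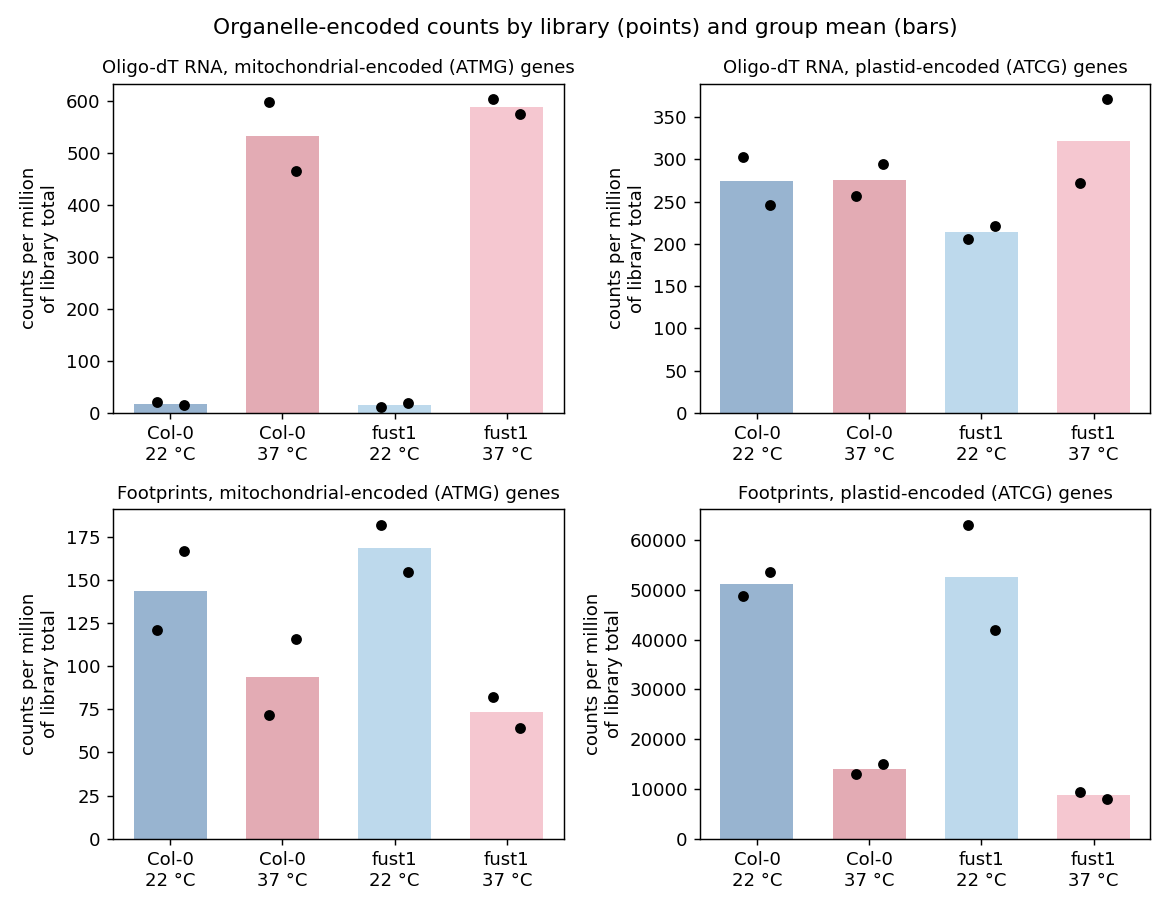
Summed counts of the mitochondrial-encoded (left) and plastid-encoded (right) genes as CPM of the library total, for oligo-dT RNA (top) and footprints (bottom). Points are the 2 libraries of a group and bars their mean, on axes that start at 0: mitochondrial-encoded RNA is at 17.3 and 531 CPM in the Col-0 groups, and mitochondrial-encoded footprints are at 144 and 93.9.

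The higher RNA was spread over many genes. Between 28 and 30 of the 120 genes had an RNA count in a library at 22 °C, and between 70 and 78 in a library at 37 °C. At 37 °C alone, 43 genes had counts, 22 of them in all 4 libraries at that temperature, and 0 genes had counts at 22 °C alone.

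The plastid-encoded genes, measured in the same libraries, did not show a share change of this size. They took 275 ± 39.9 RNA CPM at 22 °C and 276 ± 27.5 at 37 °C in Col-0, and 214 ± 10.7 and 322 ± 70.2 in fust1 (SD, n = 2). The ratios were 1.00 and 1.51 by library totals and 2.07 and 2.88 on the TMM scale. Of 45 plastid-encoded genes tested, 13 rose in Col-0 and 23 in fust1 with 0 called lower, with median log2 changes of 0.85 and 1.53. Over all tested genes 19.2 % and 18.8 % were called higher and 37.3 % and 36.7 % in either direction. The difference between the organelles was not tested.

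Genes on chromosome 2 that lie between AT2G07640 and AT2G07680 in RefSeq's gene order, 94 genes taken as the place of the mitochondrial copy from background knowledge, were also far higher in RNA at 37 °C. Their summed RNA went from 4.19 ± 1.03 to 131 ± 21.6 CPM in Col-0 (SD, n = 2), a ratio of 31.2. In fust1 it went from 5.54 ± 0.291 to 164 ± 4.66 (SD, n = 2), a ratio of 29.5. Of 30 such genes tested, 30 were called higher in Col-0 and 29 in fust1. Over all tested genes 19.2 % and 18.8 % were called higher. However, 29 of the 30 passed the low-count filter through libraries at 37 °C alone, which favoured a rise. Nothing is therefore read from the number called. Their summed footprints did not move like those of the mitochondrial-encoded genes: the ratio of 37 °C to 22 °C was 0.103 in Col-0 and 0.153 in fust1 by library totals, and 0.359 and 0.494 on the TMM scale, against 0.651 and 0.436, and 2.24 and 1.40, for the mitochondrial-encoded genes. The stretch had 3 to 16 footprints in a library at 37 °C, and these differences were not tested. The sources used here do not say how reads that match both copies were counted, so counts of a mitochondrial gene and of its copy on chromosome 2 cannot be told apart.

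Gene by gene, 46 of the 120 passed the low-count filter for RNA (about 0.998 CPM in at least 2 libraries). Of these 46, 42 passed through their libraries at 37 °C, which favoured a rise. Counts over the 46 are therefore a description and no support for a rise. In Col-0, 44 of the 46 were called higher and 0 lower (edgeR's quasi-likelihood test, Benjamini-Hochberg adjusted p under 0.05 over 19340 genes), where 19.2 % of all tested genes were called higher and 37.3 % were called in either direction. In fust1 all 46 were called higher, where 18.8 % of all tested genes were called higher and 36.7 % in either direction.

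Their median fitted log2 change was 6.07 in Col-0 beside -0.10 over all genes tested, and 6.43 in fust1 beside -0.12. Among the 35 members with a count at 22 °C in Col-0 the changes ran from 1.13 to 8.03, and among the 32 in fust1 from 2.38 to 8.77. With the 11 and 14 members that had none there set to their lower bound (3 counts over the group), the medians were 5.21 and 5.22. The libraries at 37 °C lay above those at 22 °C without overlap for 45 members in Col-0 and 46 in fust1.

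Only 4 members, ATMG00030, ATMG00090, ATMG00660 and ATMG00670, reached the filter in at least 2 of the libraries at 22 °C, and for these the filter did not require a rise. ATMG00030 had 33 and 32 counts in Col-0 at 22 °C and 362 and 280 at 37 °C, and 12 and 31 counts in fust1 at 22 °C and 364 and 284 at 37 °C. It rose by 4.34 ± 0.34 on the log2 scale in Col-0 (SE, edgeR adjusted p = 3.14e-06) and by 4.72 ± 0.35 in fust1 (edgeR adjusted p = 2.31e-06). The fust1 change was 4.25 without the first library at 22 °C and 5.46 without the second.

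ATMG00090 had 11 and 14 counts in Col-0 at 22 °C and 922 and 512 at 37 °C, and 6 and 7 in fust1 at 22 °C and 691 and 600 at 37 °C. Its log2 changes were 6.86 ± 0.29 and 7.40 ± 0.31 (SE, edgeR adjusted p = 2.11e-08 and 2.58e-08). ATMG00660 had 24 and 7 counts in Col-0 at 22 °C and 208 and 133 at 37 °C, and 10 and 18 in fust1 at 22 °C and 176 and 210 at 37 °C. It rose by 4.43 ± 0.51 and 4.57 ± 0.51 on the log2 scale (SE, edgeR adjusted p = 9.11e-05 and 8.62e-05), with the largest SE of the 4 genes in each genotype. In Col-0 it was 5.86 without the first library at 22 °C and 3.61 without the second.

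ATMG00670 had 14 and 9 counts in Col-0 at 22 °C and 272 and 216 at 37 °C, and 11 and 17 in fust1 at 22 °C and 206 and 225 at 37 °C. Its log2 changes were 5.43 ± 0.35 and 4.73 ± 0.33 (SE, edgeR adjusted p = 5.03e-07 and 1.38e-06), and the Col-0 change was 6.04 without the first library at 22 °C. In all 4 genes, every library at 37 °C was above every library at 22 °C.

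ATMG00690 gave the most RNA counts of all members. It had 5 and 15 counts in Col-0 at 22 °C and 1278 and 1019 at 37 °C, and 6 and 5 in fust1 at 22 °C and 1083 and 1368 at 37 °C. The log2 change was 7.91 ± 0.32 in Col-0 and 8.55 ± 0.34 in fust1 (SE), and the Col-0 change was 8.61 without the second library at 22 °C. ATMG00690 and the members described next, down to ATMG00960, passed the filter through libraries at 37 °C, which favoured a rise. Their changes are therefore a description and no support for a rise. ATMG00690 also differed in its part of the sum. Its share of all mitochondrial-encoded RNA counts was 2.53 to 8.20 % in the libraries at 22 °C and 18.3 to 21.3 % in those at 37 °C, without overlap. Its footprints came to no more than 2 in any of the 8 libraries.

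ATMG00630 was not detected at 22 °C and was among the 8 most counted members at 37 °C. It had 0 counts in all 4 libraries at 22 °C, 395 and 239 in Col-0 at 37 °C, and 314 and 386 in fust1 at 37 °C. Against a floor of 3 counts over a group it was at least 444-fold higher at 37 °C in Col-0 and at least 406-fold higher in fust1 on the TMM scale.

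ATMG01360 had RNA counts of 8 and 10 in Col-0 at 22 °C and 394 and 307 at 37 °C, and 9 and 12 in fust1 at 22 °C and 338 and 392 at 37 °C. ATMG01370 had 18 and 8 counts in Col-0 at 22 °C and 337 and 233 at 37 °C, and 7 and 9 in fust1 at 22 °C and 319 and 240 at 37 °C. ATMG00080 had 4 and 7 counts in Col-0 at 22 °C and 275 and 141 at 37 °C, and 0 and 2 in fust1 at 22 °C and 281 and 297 at 37 °C. All 3 were higher in every library at 37 °C, with log2 changes of 6.32, 5.45 and 6.24 in Col-0 and 5.90, 5.90 and 8.77 in fust1. The last rests on 2 counts in the second fust1 library at 22 °C: it was 7.93 without the first library, and without the second no count is left at 22 °C (fitted value 11.61). The Col-0 change of ATMG01370 was 6.42 without the first library at 22 °C and 4.77 without the second.

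The other members with the largest called rises had few counts. ATMG00665 had 0 counts in both Col-0 libraries at 22 °C and 62 and 48 at 37 °C, at least 77.0-fold higher, and 2 and 4 in fust1 at 22 °C and 78 and 48 at 37 °C. ATMG00516 had 0 counts in both Col-0 libraries at 22 °C and 41 and 26 at 37 °C, at least 46.9-fold higher, and 0 and 4 in fust1 at 22 °C and 38 and 36 at 37 °C. ATMG00140 had 0 counts in all libraries at 22 °C, 32 and 22 in Col-0 at 37 °C and 19 and 63 in fust1 at 37 °C, at least 37.8-fold and 47.5-fold higher. In ATMG00960 a single count was seen at 22 °C, in Col-0, with 45 and 12 in Col-0 at 37 °C and 30 and 37 in fust1 at 37 °C.

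The 2 members that were not called in Col-0 were low. ATMG01330 had 4 and 12 counts in Col-0 at 22 °C and 14 and 3 at 37 °C, which overlap (log2 change 1.13 ± 0.87 SE, edgeR adjusted p = 0.325), and 8 and 7 in fust1 at 22 °C and 17 and 29 at 37 °C (2.38 ± 0.83 SE, edgeR adjusted p = 0.0434). The fust1 call was lost by library totals (1.46, edgeR adjusted p = 0.169) and with a replicate block (edgeR adjusted p = 0.0722). ATMG01410 had 5 and 0 counts in Col-0 at 22 °C and 12 and 15 at 37 °C (3.35 ± 1.22 SE, edgeR adjusted p = 0.0507). Its 4 fust1 libraries had 0 and 1 at 22 °C and 8 and 24 at 37 °C (5.41 ± 1.49 SE, edgeR adjusted p = 0.0152). Both passed the filter through libraries at 37 °C, which favoured a rise, and both were named after their values were seen.

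The 40 members with RNA counts that did not pass the filter had between 1 and 42 counts each over the 8 libraries. Together they had 10 counts in the 4 libraries at 22 °C and 565 in the 4 at 37 °C.

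**Figure D2:**
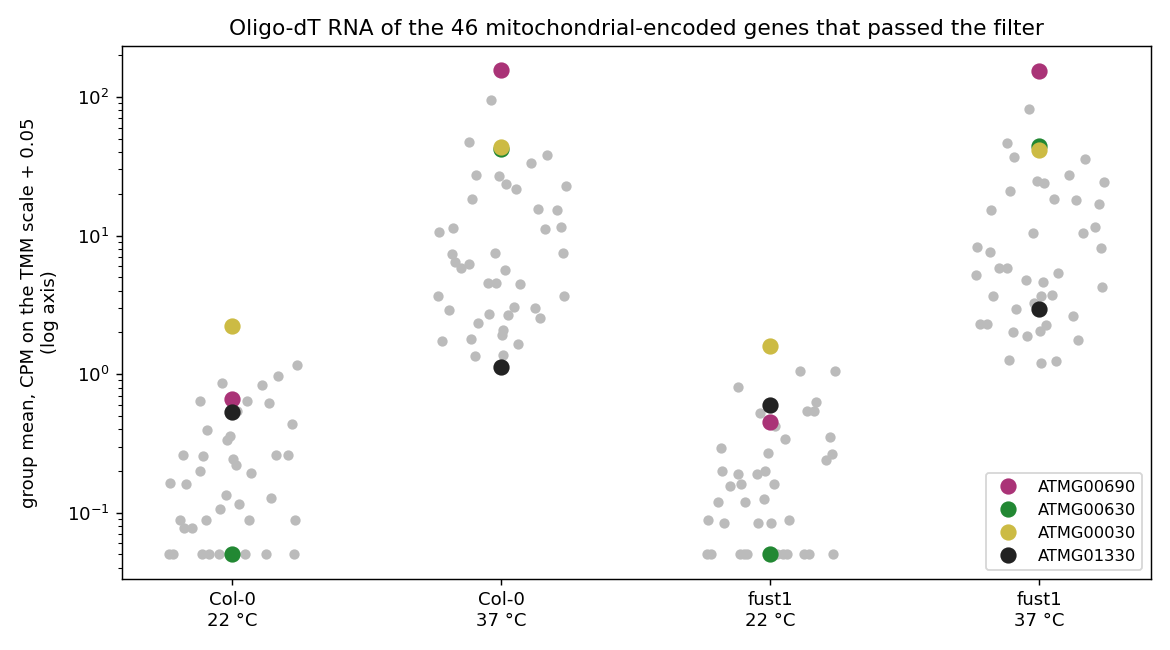
Group means (n = 2) of the 46 tested members in oligo-dT RNA, in CPM on the TMM scale plus 0.05, on a log axis. Each point is a gene and 4 genes are coloured: ATMG00690 goes from 0.609 to 156 in Col-0 and ATMG00630 from 0 to 42.2, while ATMG01330 goes from 0.487 to 1.07.

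The make-up of the RNA also shifted between genes. The 8 members with the most RNA counts took 60.2 % of all mitochondrial-encoded RNA counts. ATMG00030 made up 10.1 to 17.5 % of the counts in the libraries at 22 °C and 4.42 to 6.19 % in those at 37 °C, although its own counts rose in every comparison. ATMG01360 held a similar share at both temperatures, 4.04 to 7.56 % at 22 °C and 5.64 to 6.43 % at 37 °C. These shares rest on between 119 and 198 counts in a library at 22 °C.

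No mitochondrial-encoded gene was called between the genotypes in RNA. At 22 °C 0 of 46 passed edgeR's adjusted test, where 0.0569 % of all tested genes did, and 2 had an unadjusted p under 0.05. At 37 °C 0 of 46 passed, where 0.0517 % of all genes did, and 0 had an unadjusted p under 0.05. For the difference between the heat changes of the genotypes, 0 of 46 passed, where 0.0310 % of all genes did, and 2 had an unadjusted p under 0.05. DESeq2 also called 0 in each. At 37 °C the fust1 minus Col-0 log2 differences of the 46 genes had a median of 0.00 and ran from -0.83 to 1.39, and ATMG00690 differed by -0.01 ± 0.21 (SE). With 2 libraries a group this does not show that the genotypes are alike.

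Footprints followed a different course from the RNA. Mitochondrial-encoded genes had 1668 and 1811 footprints in Col-0 at 22 °C and 450 and 717 at 37 °C. In fust1 they had 2521 and 2160 at 22 °C and 805 and 767 at 37 °C. The counts were lower at 37 °C in both genotypes without overlap, in libraries that also differed in total.

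In CPM of the library total, the sum was 144 ± 32.3 at 22 °C and 93.9 ± 31.4 at 37 °C in Col-0 (SD, n = 2). The libraries were 121 and 167 CPM at 22 °C and 71.8 and 116 at 37 °C, so they did not overlap but lay close. In fust1 the sum was 168 ± 19.2 and 73.3 ± 12.7 CPM (SD, n = 2), with libraries of 182 and 155 at 22 °C and 82.3 and 64.3 at 37 °C, well apart.

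The direction of the sum depends on the scaling. The ratio of 37 °C to 22 °C was 0.651 in Col-0 and 0.436 in fust1 by library totals, and 2.24 and 1.40 on the TMM scale. TMM factors of the footprint libraries were 1.76 to 1.96 at 22 °C and 0.489 to 0.614 at 37 °C, and without them the median log2 change of all genes went from -0.21 to -2.01 in Col-0, and in fust1 from -0.13 to -1.80. For RNA the same step moved that median from -0.10 to -1.13 and from -0.12 to -1.04, and the RNA of mitochondrial-encoded genes was higher at 37 °C under both scalings. Plastid-encoded footprints had ratios of 0.274 and 0.165 by library totals and 0.952 and 0.527 on the TMM scale.

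Footprints lay on few genes: 36 of the 120 had at least 1, 15 had 10 or more and 7 had 100 or more over the 8 libraries. Between 13 and 21 genes had a footprint in a library. The 8 genes with the most footprints took 97.7 % of them, and these 8 are also those that passed the filter (about 0.879 CPM in at least 2 libraries), all through their libraries at 22 °C. The other 28 genes with a footprint had between 1 and 48 each, 248 in all. Of the 46 genes tested in RNA, 16 had no footprint in any library, 15 had 1 to 10 and 15 had more.

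On the TMM scale 3 of the 8 genes were called higher and 2 lower at 37 °C in Col-0, where 59.7 % of all tested genes were called, 27.8 % higher and 31.8 % lower (edgeR adjusted p under 0.05 over 18445 genes). In fust1 2 were called higher and 3 lower, where 58.8 % of all genes were called, 27.6 % higher and 31.2 % lower. The members' share of 5 of 8 in each genotype is near that background.

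ATMG00070 and ATMG00640 fell, and did so under each scaling. ATMG00070 had 242 and 209 footprints in Col-0 at 22 °C and 2 and 21 at 37 °C, and 310 and 258 in fust1 at 22 °C and 15 and 13 at 37 °C. The libraries do not overlap, and the 2 Col-0 libraries at 37 °C differ from each other. The log2 change on the TMM scale was -1.53 ± 0.43 in Col-0 (SE, edgeR adjusted p = 0.00404) and -2.31 ± 0.40 in fust1 (SE, edgeR adjusted p = 2.54e-05). Without the first Col-0 library at 37 °C, which had 2 footprints, the Col-0 change was -0.78 and not called (edgeR adjusted p = 0.0879), and without the second it was -4.04 (edgeR adjusted p = 3.76e-05).

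ATMG00640 had 153 and 165 footprints in Col-0 at 22 °C and 8 and 16 at 37 °C, and 213 and 201 in fust1 at 22 °C and 16 and 25 at 37 °C. Its log2 change was -0.97 ± 0.37 in Col-0 (SE, edgeR adjusted p = 0.0255) and -1.31 ± 0.32 in fust1 (SE, edgeR adjusted p = 0.000822). The Col-0 call was lost without the second library at 22 °C (-0.75, edgeR adjusted p = 0.151) or the first at 37 °C (-0.68, edgeR adjusted p = 0.181), and without the second at 37 °C the change was -1.56. Over the same comparisons the oligo-dT RNA of ATMG00070 rose by 4.93 ± 0.60 and 5.79 ± 0.63 on the log2 scale, and that of ATMG00640 by 6.30 ± 0.47 and 7.43 ± 0.53 (SE). Their RNA counts at 22 °C were between 1 and 8 in each library, and at 37 °C between 82 and 185. Both genes passed the RNA filter through libraries at 37 °C, so the filter favoured these RNA rises.

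ATMG00160 and ATMG00090 rose on the TMM scale in both genotypes. ATMG00160 had 319 and 401 footprints in Col-0 at 22 °C and 180 and 253 at 37 °C, and 514 and 442 in fust1 at 22 °C and 320 and 303 at 37 °C. Its TMM-scaled log2 change was 2.01 ± 0.22 in Col-0 (SE, edgeR adjusted p = 2.94e-08) and 1.43 ± 0.21 in fust1 (SE, edgeR adjusted p = 3.01e-06). By library totals it was 0.21 and -0.25, neither called (edgeR adjusted p = 0.366 and 0.282), so the rise depends on the TMM factors.

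ATMG00090 had 10 and 9 footprints in Col-0 at 22 °C and 14 and 23 at 37 °C, and 35 and 30 in fust1 at 22 °C and 18 and 33 at 37 °C. The log2 change was 3.70 ± 0.54 in Col-0 (SE, edgeR adjusted p = 9.50e-07) and 1.65 ± 0.44 in fust1 (SE, edgeR adjusted p = 0.0021). By library totals the fust1 change was -0.01 and not called. The gene had few footprints, 172 over the 8 libraries, which limits the changes in both genotypes. The difference between the heat changes, -2.05 ± 0.69 (SE), did not pass the adjusted test (edgeR adjusted p = 0.0606).

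ATMG01360 had the most footprints in every library. It had 756 and 905 footprints in Col-0 at 22 °C and 223 and 364 at 37 °C, and 1236 and 1022 in fust1 at 22 °C and 394 and 337 at 37 °C. On the TMM scale it rose in Col-0 by 1.24 ± 0.25 on the log2 scale (SE, edgeR adjusted p = 0.00045) and was not called in fust1 (0.43 ± 0.24 SE, edgeR adjusted p = 0.138). By library totals it fell in both, with log2 changes of -0.55 (edgeR adjusted p = 0.0366) and -1.25 (edgeR adjusted p = 6.45e-05).

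The last 3 tested genes also had few footprints. ATMG01170 was the 1 tested member that did not reach the filter in 2 libraries at 37 °C, so the filter favoured a fall. It had 25 and 9 footprints in Col-0 at 22 °C and 3 and 5 at 37 °C, and 19 and 28 in fust1 at 22 °C and 1 and 1 at 37 °C. Its fust1 change of -2.45 ± 1.02 (SE, edgeR adjusted p = 0.0409) rests on those 2 footprints and was not called by DESeq2 (adjusted p = 0.0655), nor with the replicate number as a block (edgeR adjusted p = 0.0574), nor without any 1 of the 4 fust1 libraries or of the 2 Col-0 libraries at 22 °C (edgeR adjusted p = 0.0519 to 0.165). ATMG01120 had 50, 42, 4 and 13 footprints in the Col-0 libraries and 80, 59, 13 and 17 in the fust1 libraries, in the order 22 °C then 37 °C. ATMG00650 had 69, 41, 6 and 7 in Col-0 and 57, 67, 12 and 15 in fust1 in the same order. On the TMM scale neither of the latter was called in either genotype, with log2 changes of 0.33 and -0.19 for ATMG01120 and -0.29 and -0.17 for ATMG00650.

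**Figure D3:**
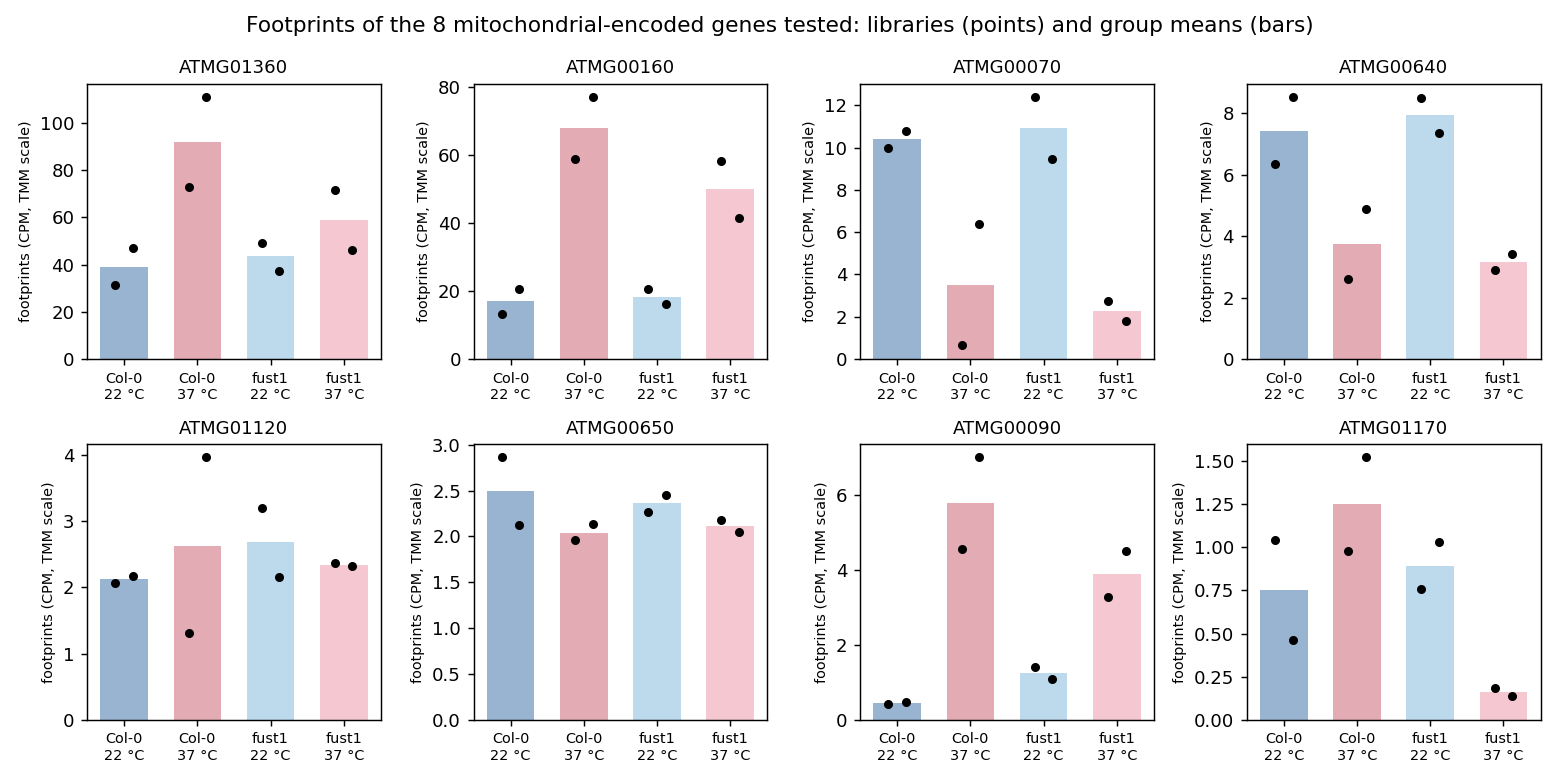
Footprints of the 8 tested members in CPM on the TMM scale, one panel a gene with its own axis from 0; points are libraries and bars group means (n = 2). In Col-0, ATMG00070 goes from 10.4 to 3.52 and ATMG00160 from 17.0 to 67.9, and both move the same way in fust1.

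Shares within the mitochondrial-encoded footprints do not depend on the scaling of the library. ATMG00160 took 19.1 to 22.1 % of them in the libraries at 22 °C and 35.3 to 40.0 % in those at 37 °C. ATMG00070 took 11.5 to 14.5 % at 22 °C and 0.444 to 2.93 % at 37 °C. ATMG00640 took 8.45 to 9.31 % at 22 °C and 1.78 to 3.26 % at 37 °C, so for these 3 genes no library at 37 °C overlapped one at 22 °C.

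ATMG00090 went from 0.497 to 1.39 % at 22 °C to 2.24 to 4.30 % at 37 °C, also without overlap. ATMG01120 took 2.32 to 3.17 % at 22 °C and 0.889 to 2.22 % at 37 °C, and ATMG00650 took 2.26 to 4.14 % and 0.976 to 1.96 %. The shares of these genes did not overlap between the temperatures either, though those of ATMG01120 lay close. ATMG01360 stayed between 43.9 and 50.8 % in all 8 libraries, with the temperatures overlapping. ATMG01170 took 0.497 to 1.5 % at 22 °C and 0.124 to 0.697 % at 37 °C, which overlap.

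When the fit was scaled to the summed mitochondrial-encoded footprints of each library, an alternative added after the data were seen, 1 gene was called higher and 3 lower in each genotype. In Col-0 these were ATMG00090, and ATMG00070, ATMG00640 and ATMG00650. In fust1 they were ATMG00160, and ATMG00070, ATMG00640 and ATMG01170. On this scale the median log2 change of all genes was -1.39 in Col-0 and -0.59 in fust1. The share of all genes called on it is not given here. The scale is the sum of the members themselves, so a lower share of some means a higher share of others. Nothing is read from the number called.

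**Figure D4:**
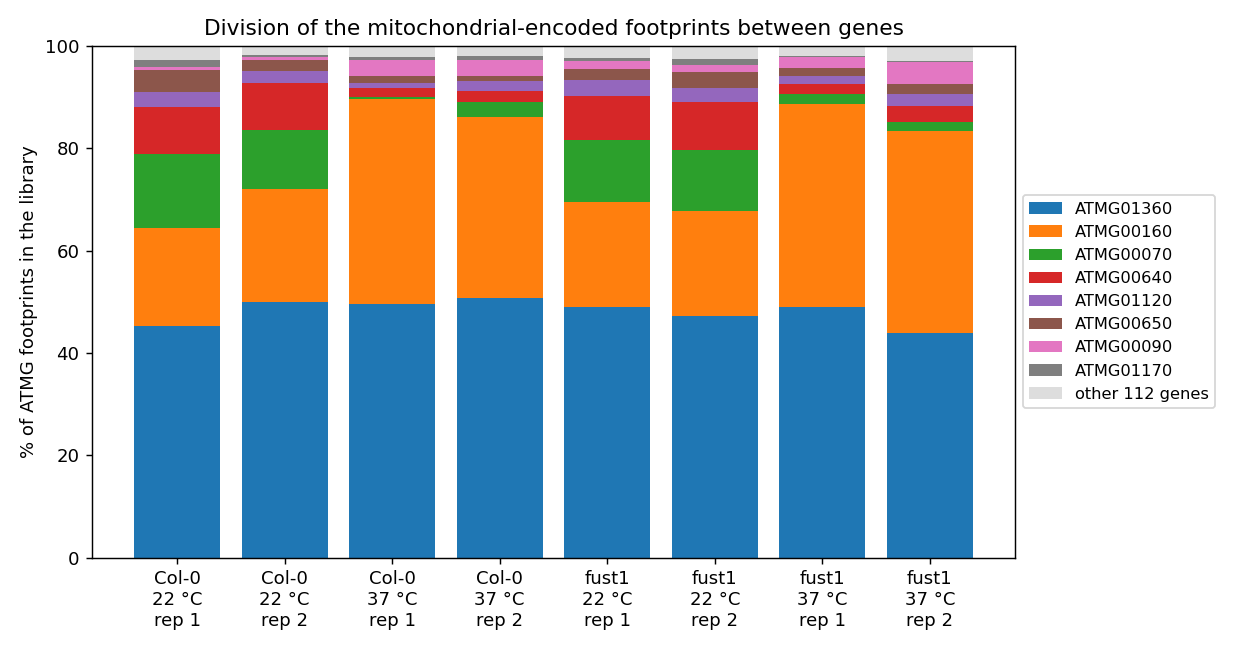
Stacked bars of the percentage of each library's mitochondrial-encoded footprints that fell on each of the 8 most counted genes and on the other 112, for the 2 libraries (rep 1 and rep 2) of each group. The 4 libraries at 37 °C have a larger ATMG00160 band (35.3 to 40.0 %) and smaller ATMG00070 and ATMG00640 bands than the 4 at 22 °C.

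No tested member was called between the genotypes in footprints. At 22 °C 0 of 8 passed, where 4.38 % of all tested genes did, with 1 at an unadjusted p under 0.05. At 37 °C 0 of 8 passed, where 10.7 % did, with 3 at an unadjusted p under 0.05, and for the difference between the heat changes 0 of 8 passed, where 8.70 % did, again with 3 at that level. DESeq2 called 0 in each. The fust1 minus Col-0 log2 difference of ATMG01360 at 37 °C was -0.65 ± 0.25, which did not pass (SE, edgeR adjusted p = 0.117). It was called without the first fust1 library at 37 °C (-0.93, edgeR adjusted p = 0.0436). Among plastid-encoded genes, 28 of 73 tested were lower in fust1 at 37 °C and 0 higher, where 4.62 % of all genes were called lower.

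Nuclear genes whose products work in mitochondria had smaller median changes in RNA than the mitochondrial-encoded genes, a difference that was not tested. Of the 46 mitochondrial-encoded genes behind that median, 42 passed the filter through libraries at 37 °C, which favoured a rise. The filter thus favoured that difference, and nothing is read from it. The 4 that reached the filter at 22 °C rose by 4.34 to 6.86 on the log2 scale in Col-0 and by 4.57 to 7.40 in fust1. In RNA, 13 of 20 nuclear-encoded respiratory chain genes rose and 1 fell in Col-0 (median log2 change 0.73, all genes -0.10), and 17 rose and 0 fell in fust1 (0.94, all genes -0.12), where 19.2 % and 18.8 % of all tested genes were called higher. In footprints 14 rose and 3 fell in Col-0 and 14 rose and 2 fell in fust1, where 27.8 % and 27.6 % of all genes were called higher. Their medians were 0.75 and 0.71 beside -0.21 and -0.13 over all genes. Nuclear gene changes, here and below, are given on the TMM scale only. By library totals the median log2 footprint change of all genes was -2.01 in Col-0 and -1.80 in fust1, so the direction of a nuclear footprint change can depend on the scaling. CYTC-2, a cytochrome c, had the smallest adjusted p: its RNA went from 9.86 ± 0.0564 to 116 ± 11.4 CPM on the TMM scale in Col-0 (SD, n = 2), a log2 change of 3.55 ± 0.20 (SE, edgeR adjusted p = 1.52e-07). Its footprints rose by 3.10 ± 0.16 in Col-0 and 3.09 ± 0.16 in fust1 on the log2 scale (SE).

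A mixed list of 13 nuclear genes was drawn up under mitochondrial gene expression. It also holds genes of other roles. Among them are CCMH, of cytochrome c maturation, and the DNA polymerases POLGAMMA1 and POLGAMMA2, so its counts are not of gene expression alone. Of the 13, 1 rose (G1) and 4 fell in Col-0 RNA, and 2 rose and 2 fell in fust1 RNA. This was near the 37.3 % and 36.7 % of all tested genes called in either direction. The symbol G1 gives no role, so its rise is not read as one of a gene expression gene. In their footprints 3 rose and 6 fell in Col-0 and 1 rose and 6 fell in fust1, where 59.7 % and 58.8 % of all genes were called. MGP3, a mitochondrial phage-type RNA polymerase, fell in RNA by 1.31 in Col-0 and by 0.96 in fust1 on the log2 scale (edgeR adjusted p = 0.00454 and 0.0159). POLGAMMA2, an organelle DNA polymerase, fell in footprints by 1.81 and by 1.47 (edgeR adjusted p = 3.52e-06 and 5.03e-06).

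Alternative respiration, the bypass of the proton-pumping complexes, had 4 of 8 genes tested in footprints. On the TMM scale all 4 rose in both genotypes, where 27.8 % and 27.6 % of all tested genes were called higher. Their changes by library totals are not given here. AOX1A, the main stress-induced alternative oxidase, went from 75.8 ± 5.95 to 242 ± 25.4 footprint CPM on that scale in Col-0, and in fust1 from 71.2 ± 1.90 to 167 ± 10.2 (SD, n = 2). Its fust1 minus Col-0 log2 difference at 37 °C was -0.53 ± 0.14 (SE, edgeR adjusted p = 0.0127). In RNA 2 of 5 tested genes rose in Col-0, NDB2 and NDA1, while in fust1 NDB2 rose and AOX1A fell, by 0.84 on the log2 scale (edgeR adjusted p = 0.0308). Over all tested genes 37.3 % and 36.7 % were called in RNA in either direction, and these counts are near that background.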

How the data were processed

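The deposited values are whole-number read counts per gene, per the file headers, without normalization. Reads had been handled with Bowtie 1.0.1, STAR 2.7.3a, fastp 0.19.7 and featureCounts 1.6.2 on the genome TAIR10, per the submitters' processing notes. Strand, counted feature, treatment of multi-mapping reads and any footprint length filter are not given in the sources used here. Reads carry no stated molecular identifiers, so counts can include PCR copies.

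Each assay was fitted apart, over all its genes and 8 libraries, with edgeR 4.0.16 (R 4.3.3): filterByExpr with a minimum count of 10, TMM scaling and the robust quasi-likelihood test, with 4 residual degrees of freedom. Each assay had 5 comparisons: heat in each genotype, genotype at each temperature, and their interaction. Benjamini-Hochberg adjusted p-values under 0.05 over all genes are calls. Each SE was derived from the size of the log2 change and its F statistic. The procedure was also run on simulated data. The changed genes there were set at higher levels than most of these members had in RNA at 22 °C. That run is therefore no check of those changes, and nothing is read from it. Members and lists were chosen with earlier results of these data known. Of the lists, only genes with a symbol in RefSeq's table (TAIR10.1) were used, and 0 of 120 ATMG identifiers are in it, so grouping members by role was not possible. Named members are the 8 with the most counts per assay, up to 4 with the largest called rise or fall per heat comparison, and, chosen later, the 4 that passed the RNA filter at 22 °C and the 2 not called. Nuclear genes are among the up to 4 per list by adjusted p. Alternatives were RLE scaling, library totals, TMM from nuclear genes, DESeq2 1.42.0, no filter, a replicate block and each library left out.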

Additional observations from a re-analysis of the deposited data

How the results depend on the processing

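The RNA calls kept their direction and came within 1.5 times the reported counts under every alternative run. In Col-0 44 genes were called with library totals, nuclear TMM factors or the replicate block, 45 with RLE or DESeq2, 58 of 86 without the filter and 38 to 45 with a library left out. In fust1 the counts were 45 to 46 with those scalings, DESeq2 and the replicate block, 55 without the filter and 42 to 46 with a library left out. For the 12 RNA members with the most counts or the largest rises, all 336 values under alternatives had the same direction and call. Of these, only ATMG00030, ATMG00090 and ATMG00670 reached the filter in at least 2 libraries at 22 °C. The others passed through libraries at 37 °C, so the filter favoured this agreement. Neither it nor the counts above are support for a rise. ATMG01330 and ATMG01410, described as not called in Col-0, did not: the fust1 call of ATMG01330 was also lost without any 1 fust1 library or Col-0 library at 22 °C (edgeR adjusted p = 0.0582 to 0.183), and its Col-0 change was -0.10 without the first library at 37 °C. ATMG01410 was called in Col-0 by DESeq2 (adjusted p = 0.027), RLE scaling and no filter, and lost its fust1 call without the first fust1 library at 22 °C or the second at 37 °C (edgeR adjusted p = 0.0821 and 0.101). RNA genotype and interaction counts stayed at 0 throughout.

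The ratios of summed counts moved with the scaling, to 62.2 (TMM) and 62.3 (RLE) for RNA in Col-0, 72.3 and 72.9 in fust1, 2.24 and 2.16 for footprints in Col-0 and 1.40 and 1.34 in fust1. With a library left out they were 26.2 to 37.0 and 31.0 to 48.3 for RNA and 0.497 to 0.804 and 0.382 to 0.489 for footprints. By library totals, 1 footprint gene was called higher and 5 lower in Col-0, and 0 higher and 6 lower in fust1, against 3 and 2, and 2 and 3, on the TMM scale. The median log2 footprint change of all genes by library totals was -2.01 in Col-0 and -1.80 in fust1. The share of all genes called lower that way is not given here, so nothing about the members is read from these counts. The number called in Col-0 footprints was 3 to 5 with a library left out, with 3 higher and 0 lower without the first Col-0 library at 37 °C, and 4 to 5 in fust1. Footprint genotype calls at 37 °C were 0 to 1 and interaction calls 0 to 1 with a library left out, and 1 each without the filter, ATMG01360 in every case (interaction -1.12, edgeR adjusted p = 0.0471, without the second Col-0 library at 22 °C).

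Footprint changes that turned direction by library totals were ATMG00090 (-0.01) and ATMG00160 (-0.25) in fust1, ATMG01120 (-1.45) and ATMG01170 (-1.06) in Col-0, and ATMG01360 in Col-0 (-0.55) and fust1 (-1.25). Scaled to the mitochondrial-encoded sum, ATMG01120 (-0.91) and ATMG01170 (-0.53) in Col-0 and ATMG01360 in fust1 (-0.05) turned. With a library left out ATMG01120 ran from -0.76 (without the second library at 37 °C) to 0.82 in Col-0 and from -0.45 to 0.11 (without the first at 22 °C) in fust1. Of the gene-level footprint values, 208 kept direction and call, 15 lost a call, 6 gained one and 11 turned. The cause of these changes was not tested beyond the scaling itself.

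With the replicate number as a block, footprint calls were 5 in Col-0 and 4 in fust1, and 0 in the other comparisons. Same-numbered deviations correlated weakly, between -0.26 and 0.205 for RNA and between -0.0659 and 0.0569 for footprints. The highest RNA values were between the genotypes at 37 °C (0.205) and at 22 °C (0.157). Such values cannot settle whether the numbers pair the libraries. The block changed the calls of ATMG01170 in fust1 footprints and of ATMG01330 in fust1 RNA.

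RNA values at 22 °C rest on 119 to 198 counts a library and footprint values at 37 °C on 450 to 805, which limits single genes. The planned share of summed counts without genes outside the role lists was not run, because no table used here annotates the identifiers.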
